A study of Mus musculus with 10 samples.

Results

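The genes described here are the 3 Runx transcription factors (Runx1, Runx2 and Runx3), their shared partner Cbfb, the zinc-finger factors Zbtb7b (ThPOK) and Zbtb7a (LRF), and the coreceptor genes Cd4, Cd8a and Cd8b1. They were chosen by name, as 9 of the 48321 gene symbols listed for every library, of which 28262 had a count in any library, and all 9 passed the filter on low counts that left 13796 genes to test. RNA-seq was made from splenic CD4+ T cells of C57BL/6 mice that carried a Foxp3-ires-gfp reporter, so that FoxP3+ cells could be sorted by their fluorescence. The KO mice were Satb1 F/F with a Thpok-cre transgene, which deletes the chromatin organizer Satb1 in cells that have turned on ThPOK, and their counterparts are labelled WT, with no further genotype given for them in the labels. The mice were 8 to 12 weeks old and of both sexes. FoxP3+CD25+ cells (Tregs) and FoxP3-CD25- cells (non-Tregs) were sorted from WT and from KO spleens, and FoxP3+CD25- cells from KO spleens only, with 2 libraries in each of the 5 groups. The labels do not say whether libraries of a group came from separate mice, so p-values measure the spread between these libraries. In WT, the sex-linked genes given below differed between the libraries numbered 1 and 2, so these came from different mice.

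Runx proteins bind DNA as heterodimers with Cbfb and act as activators or repressors depending on the cofactors they recruit. In the thymus, Runx1 and Runx3 silence Cd4 in cells of the CD8 lineage, whereas ThPOK, which is turned on in MHC class II-restricted thymocytes, represses Runx3 and CD8-lineage genes and keeps Cd4 on. LRF is a close relative of ThPOK that helps to maintain the CD4+ state, and Cd8a and Cd8b1 encode the chains of the CD8 coreceptor.

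The 3 Runx genes share a tandem Runx motif near their distal start sites, and it is shown here because these members have it in common and no other member with a listed promoter does. In the following 30-base windows, read 5′ to 3′ on the gene's strand from RefSeq promoters of GRCm38.p6, capitals mark the Runx motif ACCACA.
Runx1: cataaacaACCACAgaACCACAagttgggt
Runx2: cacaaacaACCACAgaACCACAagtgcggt
Runx3: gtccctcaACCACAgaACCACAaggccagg
The windows lie at chr16:92826025-92826054 on the minus strand for Runx1, chr17:44814583-44814612 on the minus strand for Runx2 and chr4:135120503-135120532 on the plus strand for Runx3. The longest run of bases that a promoter of each Runx gene held was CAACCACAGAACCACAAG, 18 bases with 2 copies of the motif, which starts 26 bases after the listed start site in Runx1, 21 bases after it in Runx2 and 136 bases before it in Runx3. Searched on both strands, it occurred in 4 of 32851 listed promoters (0.0122%), those of the 3 Runx genes and of Gm16225, whose window on the opposite strand overlaps that of Runx3. This search was set up after the promoters had been read. A single ACCACA occurred in 5506 promoters (16.8%). Of the 9 genes, 7 had a promoter in the table, and those of Cbfb, Zbtb7a and Cd8a held no ACCACA in the 300-base window, while 1 of the 2 Zbtb7b promoters held a single copy. In the GRCm38 annotation, the genes lie at chr16:92601466-92826149 (Runx1, minus strand), chr17:44495987-44814797 (Runx2, minus), chr4:135120652-135177990 (Runx3, plus), chr8:105170674-105217989 (Cbfb, plus), chr3:89377644-89394776 (Zbtb7b, minus) and chr10:81135220-81152995 (Zbtb7a, plus). The coreceptor genes are all on chromosome 6, Cd8b1 at chr6:71322788-71337494 (plus), Cd8a at chr6:71373427-71379173 (plus) and Cd4 at chr6:124864692-124888221 (minus).

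Total counts on genes were 6094952 to 12410064 per library (median 7721649), and a count of 3 corresponded to 0.242 to 0.492 CPM, where CPM are counts divided by the TMM-adjusted library total. Satb1, the deleted gene, was at 379 and 478 CPM in WT Tregs, 534 and 598 CPM in KO Tregs, 818 and 881 CPM in WT non-Tregs, 682 and 841 CPM in KO non-Tregs and 993 and 1186 CPM in KO FoxP3+CD25- cells. The libraries labelled KO were thus not lower in Satb1 in Tregs, but gene counts pool all exons and do not check the deletion. Foxp3 and Il2ra (CD25) followed the sort labels, with Foxp3 at 617.7 to 739 CPM in Tregs, 318 to 361 CPM in KO FoxP3+CD25- cells and 18.0 to 38.9 CPM in non-Tregs, and Il2ra at 16.8 CPM in KO FoxP3+CD25- cells against 627 to 760.2 CPM in Tregs. Both WT libraries numbered 1 held 14487 to 16362 Xist counts and no count of the Y-linked genes, a female pattern. Everywhere else Xist was at 4 counts or fewer and the Y-linked genes summed to 3039 to 4750 counts, a male pattern. All KO libraries were thus male, whereas each WT group held a female and a male library. Comparisons of KO with WT and the spread between WT libraries therefore include a difference of sex. Fits without both WT libraries of replicate 1 hold male libraries only. The summed level of 10 T-cell markers was 4496 to 5705 CPM. Of the dendritic-cell and NK-cell markers, Clec9a and Ncr1 had at most 2 counts in any library. Other genes of these lists and of the B-cell and myeloid lists moved with the sorted groups, with values given beside the cytotoxic genes and after them.

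On a per-length scale (CPM per kb of annotated exons, averaged over 10 libraries), Cd4 was the most abundant member at 221, followed by Cbfb at 63.7, Zbtb7b at 50.5, Zbtb7a at 26.6, Runx3 at 25.9 and Runx1 at 14.0. Cd8b1 was at 8.02, Runx2 at 2.1 and Cd8a at 0.382 CPM per kb. Zbtb7b, Cbfb, Zbtb7a and Runx1 varied least, with their highest and lowest libraries 1.3-fold, 1.31-fold, 1.39-fold and 1.42-fold apart in CPM. Cd4 spanned 1.61-fold, Cd8b1 1.71-fold, Runx3 2.65-fold and Runx2 12.8-fold.

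**Figure D1:**
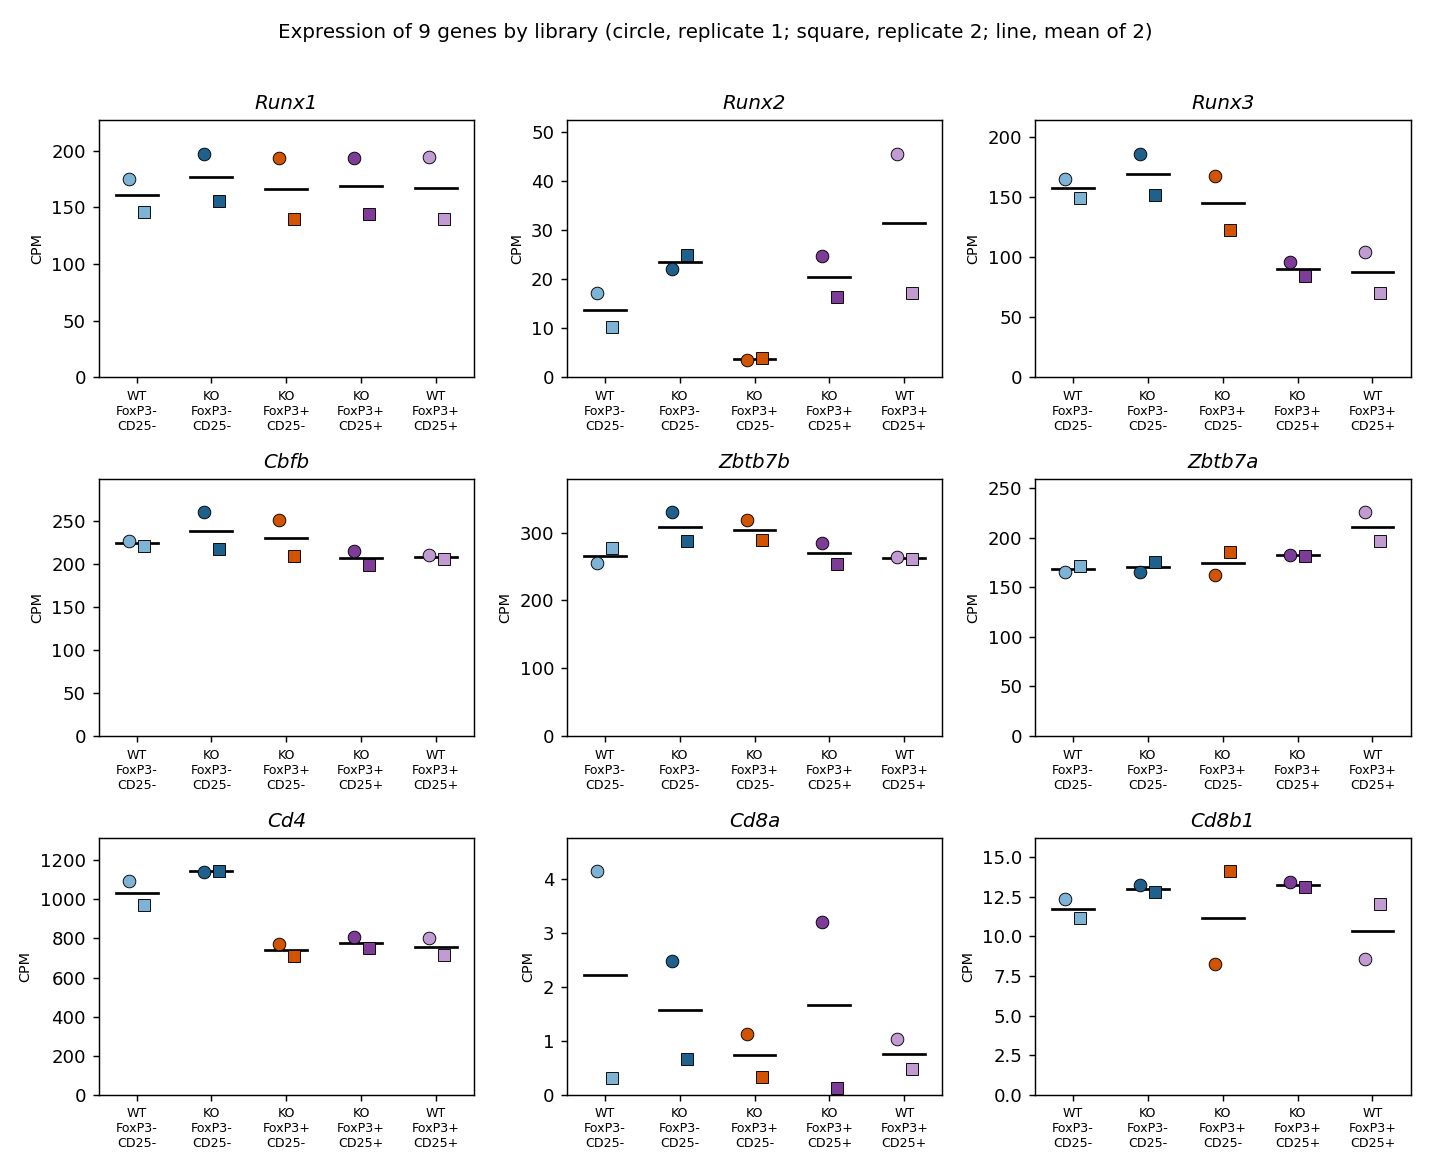
Expression of the 9 genes in each library, in CPM on axes that start at 0, for the 5 sorted groups. Circles are replicate 1, squares replicate 2 and lines the mean of 2. Runx3 is low in both Treg groups, Cd4 is low in every FoxP3+ group, and Runx2 is at 3.56 and 3.83 CPM in KO FoxP3+CD25- cells.

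Runx3, the Runx factor of CD8 and cytotoxic programs, was lower in Tregs than in non-Tregs. It was measured at 104 and 70.3 CPM in WT Tregs against 165 and 149 CPM in WT non-Tregs. In KO mice, it stood at 95.8 and 84.4 CPM in Tregs against 186 and 151 CPM in non-Tregs. No Treg library reached the lowest non-Treg library in either genotype. The log2 fold change of Tregs over non-Tregs was -0.85 ± 0.20 (SE) in WT, with an adjusted p of 0.0181, and -0.90 ± 0.20 in KO, with an adjusted p of 0.0215 (edgeR, over all genes tested). Runx3 and Cd4 were the members called (adjusted p under 0.05) in each of these comparisons, where 10.9% of all genes in WT and 6.34% in KO were called and 3.75% and 2.81% were called lower. In WT, the adjusted p of Runx3 rose to 0.102 without WT FoxP3-CD25- replicate 1, to 0.0814 without WT FoxP3+CD25+ replicate 2 and to 0.0604 without WT FoxP3-CD25- replicate 2, and in KO it lay between 0.0392 and 0.173 when KO FoxP3+CD25+ or KO FoxP3-CD25- libraries were left out singly, losing the call without KO FoxP3+CD25+ replicate 1 (0.0813), KO FoxP3+CD25+ replicate 2 (0.173) and KO FoxP3-CD25- replicate 1 (0.147). The direction held in each of them, with log2 fold changes between -1.15 and -0.57.

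The KO FoxP3+CD25- cells had Runx3 at 167 and 122 CPM, so that both libraries lay above every Treg library. Compared with WT Tregs, Runx3 was higher by a log2 fold change of 0.73 ± 0.20 (adjusted p = 0.0397, where 11.2% of all genes were called and 3.88% called higher). Against KO Tregs the log2 fold change was 0.68 ± 0.20 with an adjusted p of 0.0715, which passed the threshold in 5 of 6 alternative analyses (range 0.00184 to 0.0763), the lowest of them with a block for the replicate number within each genotype (log2 fold change 0.67). Against KO non-Tregs, it was -0.22, with a 95% confidence interval from -0.66 to 0.21, and against WT non-Tregs it was -0.12 (-0.55 to 0.31). The call against WT Tregs was borderline: the adjusted p became 0.155 without WT FoxP3+CD25+ replicate 2, 0.262 without KO FoxP3+CD25- replicate 1, 0.0539 and 0.0535 without WT FoxP3-CD25- replicates 1 and 2, 0.0522 and 0.0520 without KO FoxP3+CD25+ replicates 1 and 2, and 0.115 when only the compared libraries were fitted.

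Runx1, which in T cells partners with FoxP3 on DNA, was at 139 to 197 CPM in all 10 libraries, and the ranges of all 5 groups overlapped. Its largest log2 fold change over the 8 pairwise comparisons was 0.14 (95% interval -0.34 to 0.61), for KO over WT non-Tregs. The exons of Runx1 share 106 bases with those of the antisense gene Gm26626, which had 53 to 110 counts per library against at least 1100 counts for Runx1. The sources used here do not give the strand setting of the counting, so reads in the shared bases cannot be told apart.

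Runx2, best known as the master regulator of bone formation and present at a low level in T cells, was lower in KO FoxP3+CD25- cells than in the other sorted populations of KO spleens. It had 22 and 35 counts there (3.56 and 3.83 CPM), against 133 and 190 counts (22.0 and 25.0 CPM) in KO non-Tregs and 162 and 125 counts (24.7 and 16.4 CPM) in KO Tregs. Every other library was at 10.3 CPM or above. The log2 fold change was -2.66 ± 0.50 against KO non-Tregs (adjusted p = 0.0276), -2.46 ± 0.51 against KO Tregs (adjusted p = 0.0135) and -3.07 ± 0.49 against WT Tregs (adjusted p = 0.00207). The share of all genes called lower was 1.35%, 4.76% and 7.34% in these comparisons, in that order, out of 1.67%, 7.01% and 11.2% called in either direction. Against WT non-Tregs, at 17.2 and 10.3 CPM, the log2 fold change was -1.90 ± 0.51 with an adjusted p of 0.177 (0.000937 to 0.216 over 6 alternatives, 3 of which called it). No member was called in that comparison, beside 0.768% of all genes. The call against KO non-Tregs was lost when any of the 4 compared libraries was left out, which leaves a group with 1 library. The log2 fold change then stayed between -2.75 and -2.56, so the size of the difference did not rest on a single library. The call against KO Tregs was likewise lost without KO FoxP3+CD25+ replicate 1 (0.0867), KO FoxP3+CD25- replicate 1 (0.0769) and KO FoxP3+CD25- replicate 2 (0.100), whereas the call against WT Tregs held in 4 of 4 such fits. Siglech, a marker of plasmacytoid dendritic cells, which also use Runx2, had at most 1 count in any library. Other dendritic-cell markers moved with the sorted groups, as given below, and their part in the Runx2 differences was not tested.

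In WT Tregs, Runx2 differed widely between libraries, at 45.7 CPM in replicate 1 and 17.2 CPM in replicate 2. The log2 fold change over WT non-Tregs was 1.17 ± 0.39 with an adjusted p of 0.0914, and the Treg and non-Treg ranges touched, with 17.2 CPM in a library of each. It passed the threshold in 4 of 7 alternatives (0.00229 to 0.292), including the block for the replicate number within each genotype (log2 fold change 1.13, adjusted p = 0.00229). The value rested on WT FoxP3+CD25+ replicate 1, since without it the log2 fold change was 0.32 with an adjusted p of 0.696, and without WT FoxP3+CD25+ replicate 2 it was 1.73 with an adjusted p of 0.00259. It was 0.74 with an adjusted p of 0.292 without both WT libraries of replicate 1. Runx2 shares 519 exon bases with the antisense gene Runx2os1, which had 2 to 24 counts per library.

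Among the summed Runx levels per kb, Runx3 made up 49.4% to 54.9% in the 4 Treg libraries and 65.7% to 69.1% in the 6 CD25- libraries, including both of KO FoxP3+CD25- cells (67.0% each). The share of Runx1 was 38.3% to 42.3% in Tregs and 28.1% to 32.2% in CD25- cells. Runx2 made up 0.806% and 1.19% in KO FoxP3+CD25- cells and 2.71% to 12.3% elsewhere. With the longest transcript as length, Runx3 had 40.0% to 44.5% in Tregs and 56.1% to 59.2% in CD25- cells, so the separation did not depend on the choice of length. The ratio of Runx3 to Runx1 counts, which needs no length, was 0.495 to 0.585 in Tregs, 0.865 and 0.877 in KO FoxP3+CD25- cells and 0.941 to 1.02 in non-Tregs. These shares were formed after the levels had been seen and are given as a description.

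**Figure D2:**
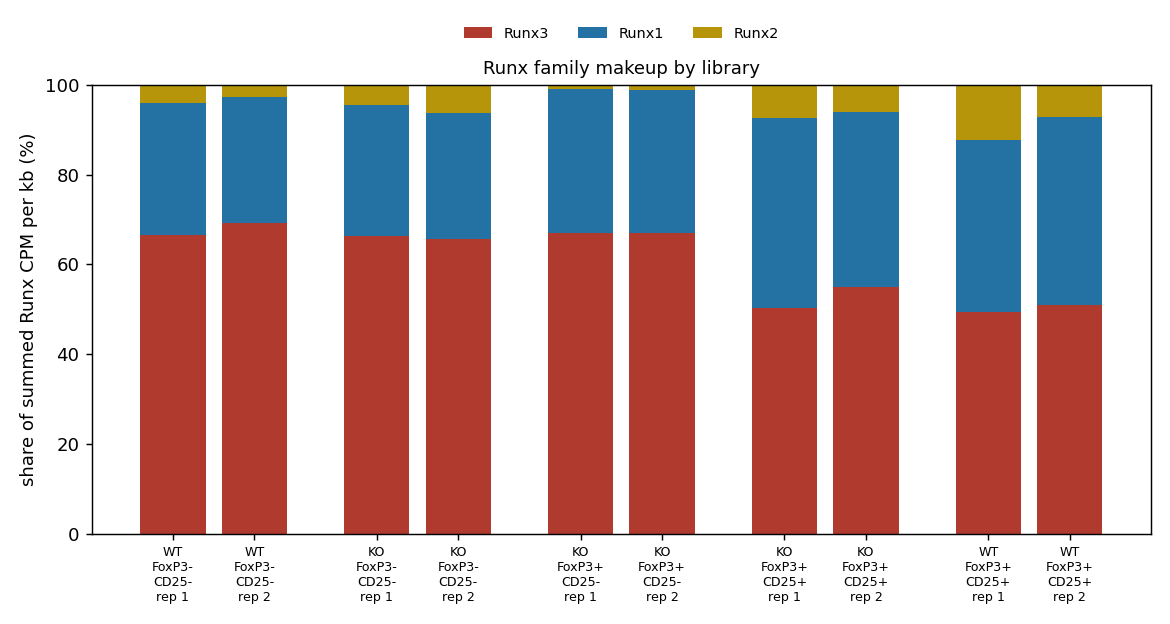
Makeup of the Runx family in each library, as the share of summed CPM per kb of Runx3, Runx1 and Runx2. Each bar is 1 library and sums to 100%. Runx3 takes 49.4% to 54.9% of the bar in Tregs and 65.7% to 69.1% in the 3 CD25- groups, and Runx2 at most 1.19% in KO FoxP3+CD25- cells.

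Cbfb, the subunit that all Runx factors need for stable DNA binding, was at 198 to 260 CPM. Its log2 fold changes over the 8 pairwise comparisons lay between -0.20 and 0.15, and none was called. For the largest change, that of KO Tregs over KO non-Tregs, the 95% interval was -0.48 to 0.07. Cbfb overlaps only small RNA genes in its introns, with at most 5 counts each.

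Zbtb7b (ThPOK) varied within 1.3-fold over all libraries, at 264 and 261 CPM in WT Tregs, 255 and 277 CPM in WT non-Tregs, 285 and 254 CPM in KO Tregs, 318 and 290 CPM in KO FoxP3+CD25- cells and 330 and 287 CPM in KO non-Tregs. The largest differences were those of KO FoxP3+CD25- cells against WT Tregs (log2 fold change 0.21, 95% interval -0.03 to 0.46) and of KO against WT non-Tregs (0.21, -0.03 to 0.46), with adjusted p of 0.292 and 0.700. In both, the KO libraries lay above the WT libraries without overlap, but neither was called and the share of all genes separated this way was not counted. KO and WT Tregs overlapped. Between Tregs and non-Tregs the log2 fold change of Zbtb7b was -0.02 (-0.27 to 0.23) in WT and -0.19 (-0.44 to 0.05) in KO. The KO cells carry a transgene driven by Thpok regulatory sequence and the WT genotype is not given in detail, so an effect of the transgene and of the Satb1 deletion on these counts cannot be told apart. Zbtb7b overlaps 116 exon bases of the antisense gene Gm15417, which had 14 to 28 counts against at least 1866 for Zbtb7b.

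Zbtb7a (LRF) was at 226 and 197 CPM in WT Tregs and at 163 to 186 CPM in the other 8 libraries. The log2 fold change of WT Tregs over WT non-Tregs was 0.33 ± 0.11 with an adjusted p of 0.0891, and 1 of 7 alternatives called it (0.0244 to 0.564), the block for the replicate number within each genotype (log2 fold change 0.32, adjusted p = 0.0244). It was 0.20 with an adjusted p of 0.564 without both WT libraries of replicate 1. It was called without WT FoxP3+CD25+ replicate 2 (log2 fold change 0.44, adjusted p = 0.0303). In KO the same contrast gave 0.10 (-0.14 to 0.34). Per kb, Zbtb7b exceeded Zbtb7a 1.42-fold to 2.43-fold in every library.

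Cd4, the coreceptor for MHC class II, was lower in FoxP3+ cells of all 3 sorts than in FoxP3- cells. WT Tregs had 801 and 717 CPM and KO Tregs 806 and 749 CPM. The non-Treg libraries had 1094 and 974 CPM in WT and 1142 and 1145 CPM in KO, with no overlap in either genotype. Tregs over non-Tregs gave a log2 fold change of -0.45 ± 0.12 in WT (adjusted p = 0.0300) and -0.56 ± 0.12 in KO (adjusted p = 0.0158). In KO FoxP3+CD25- cells, Cd4 was at 773 and 711 CPM, which was -0.62 ± 0.12 on the log2 scale against KO non-Tregs (adjusted p = 0.0256). Runx2 and Cd4 were the 2 of 9 members called in that comparison, in which 1.67% of all genes were called and 1.35% were called lower. Against WT non-Tregs the log2 fold change was -0.48 ± 0.12 with an adjusted p of 0.124, which 3 of 6 alternatives called (range 0.00841 to 0.420). Relative to KO Tregs, it was -0.07 (-0.32 to 0.19), and relative to WT Tregs -0.03 (-0.29 to 0.22).

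The Cd4 calls depended on the number of libraries. In WT, the adjusted p rose to 0.162 without WT FoxP3-CD25- replicate 1, to 0.0951 without WT FoxP3+CD25+ replicate 2, to 0.0508 without WT FoxP3-CD25- replicate 2, to 0.164 when only the 4 compared libraries were fitted and to 0.147 without both WT libraries of replicate 1. Among KO libraries, it was 0.0723 to 0.153 for Tregs over non-Tregs and 0.0864 to 0.224 for FoxP3+CD25- cells over non-Tregs when any of the 4 compared libraries was left out. The log2 fold changes of Cd4 then stayed between -0.69 and -0.35.

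The comparisons of WT Tregs with WT non-Tregs and of KO FoxP3+CD25- cells with KO non-Tregs share no library, and 23 genes were called lower in both, which was 4.45% of the 517 genes called lower in WT Tregs and 12.4% of the 186 called lower in KO FoxP3+CD25- cells. Cd4 was the single member among them. When each library is placed by its Runx3 and Cd4 levels, KO FoxP3+CD25- cells lie at 773 CPM or below for Cd4, as Tregs with at most 806 CPM, but at 122 CPM or more for Runx3, where Tregs have at most 104 CPM.

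**Figure D3:**
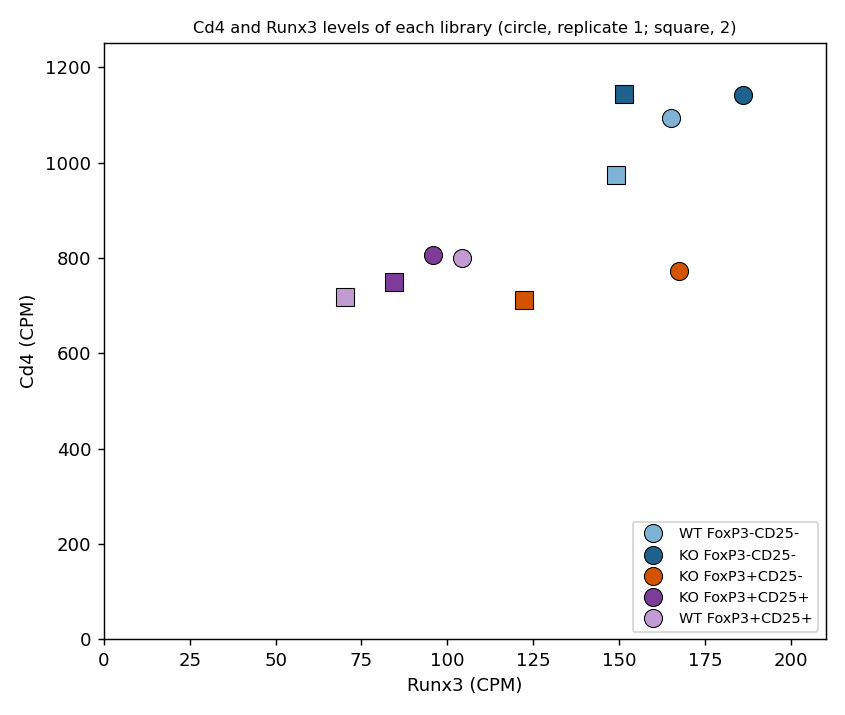
Runx3 (horizontal axis) against Cd4 (vertical axis) in CPM, 1 point per library, coloured by group, both axes from 0. The 4 Treg libraries lie at the lower left, the 4 non-Treg libraries at the upper right, and KO FoxP3+CD25- cells at the lower right, with Cd4 at 711 and 773 CPM.

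Cd8a was close to the detection limit, with 8 and 4 counts in WT Tregs, 50 and 3 in WT non-Tregs, 21 and 1 in KO Tregs, 7 and 3 in KO FoxP3+CD25- cells and 15 and 5 in KO non-Tregs. In every group the library numbered 1 had more Cd8a than the library numbered 2, and the groups overlapped. Counts of Cd4 exceeded those of Cd8a 252-fold to 5716-fold. No change of Cd8a was detectable at this depth, with a 95% interval as wide as -3.80 to 3.47 on the log2 scale, for KO FoxP3+CD25- cells over WT Tregs.

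Cd8b1, which ends 35932 bases upstream of the start of Cd8a on chromosome 6, was detected in every library with 51 to 149 counts (8.24 to 14.1 CPM). It exceeded Cd8a 2.98-fold to 100-fold in counts, although its annotated exons are shorter (1.483 kb against 3.637 kb). KO Tregs, at 13.4 and 13.1 CPM, lay above WT Tregs, at 8.57 and 12 CPM, with a log2 fold change of 0.36 (95% interval -0.22 to 0.94) that was not called. All other pairwise log2 fold changes of Cd8b1 lay between -0.21 and 0.15.

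The comparison of KO with WT cells asks whether the loss of Satb1 changes these genes within a sorted population. In Tregs, 0 of 9 members were called, none of them at an unadjusted p under 0.05, and no alternative called any, while edgeR called 0.00725% of all genes, a single gene, and 592 genes had an unadjusted p under 0.05. Apart from Cd8a, their log2 fold changes lay between -0.62 (Runx2, 95% interval -1.48 to 0.25) and 0.36 (Cd8b1). Without both WT libraries of replicate 1, they lay between -0.11 (Zbtb7a) and 0.36 (Runx3), with Runx2 at 0.24 and Cd8b1 at 0.14, so that the sign of the Runx2 value depended on WT FoxP3+CD25+ replicate 1. Among non-Tregs, again 0 of 9 were called, none at an unadjusted p under 0.05 and none in any alternative, beside 0.145% of all genes. The log2 fold changes ran from 0.02 (Zbtb7a) to 0.76 (Runx2, -0.13 to 1.65), again leaving out Cd8a, and Runx2 was at 1.20 without both WT libraries of replicate 1 (adjusted p = 0.175). For Runx3 the intervals were -0.40 to 0.49 in Tregs and -0.33 to 0.53 in non-Tregs, and for Cd4 -0.22 to 0.29 and -0.11 to 0.40. The difference between the KO effect in Tregs and that in non-Tregs was called for no member and for 0 genes in all by edgeR (685 at an unadjusted p under 0.05, 25 called by DESeq2). Runx2 had the smallest unadjusted p among the members there (0.0331, adjusted p = 0.961), with a log2 difference of -1.38 (-2.62 to -0.13).

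**Figure D4:**
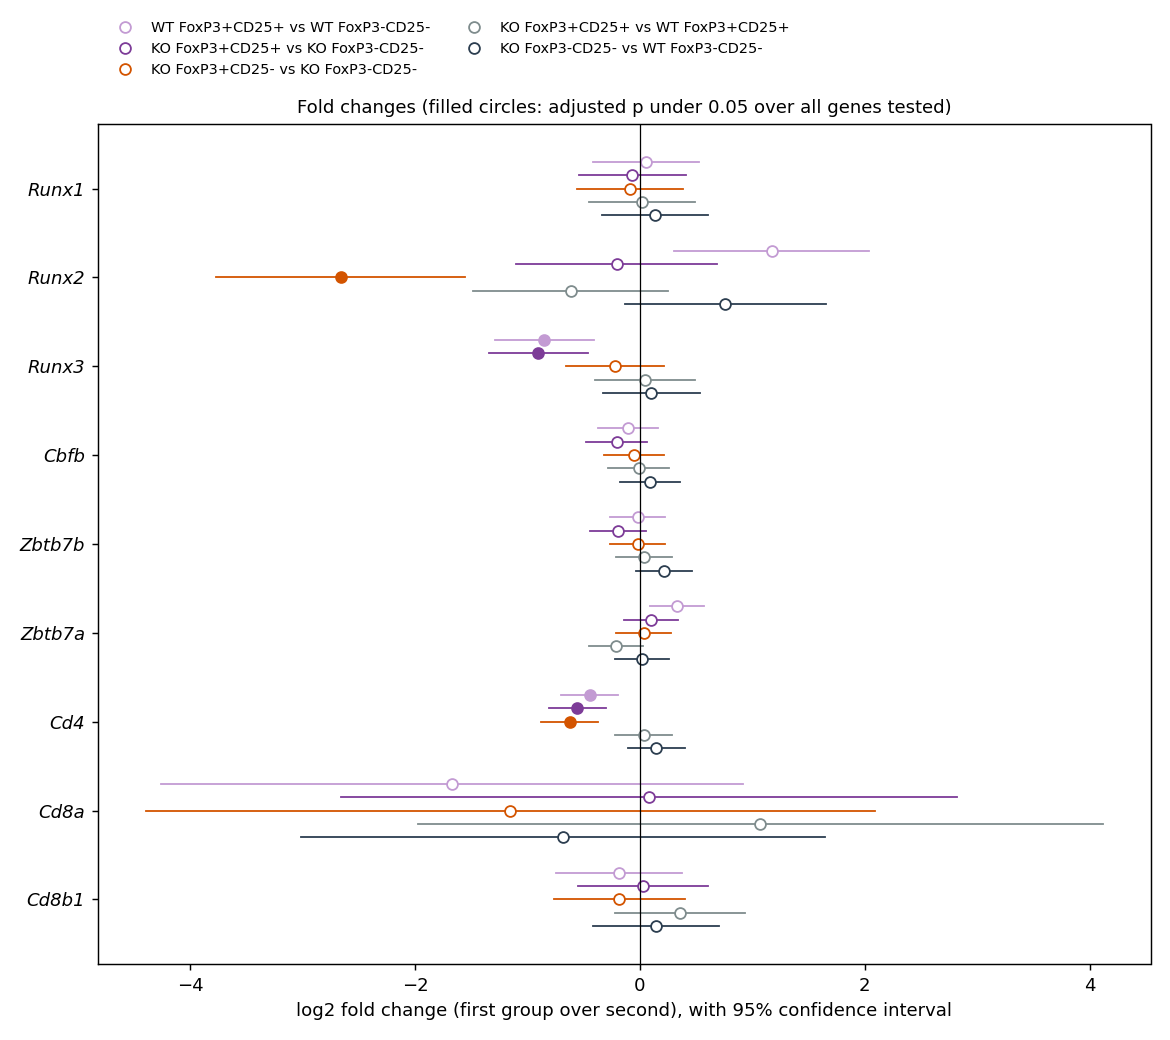
Log2 fold changes of the 9 genes with 95% confidence intervals in 5 comparisons, the 3 between populations of the same genotype and the 2 of KO over WT cells. Filled circles mark an adjusted p under 0.05 over all genes tested. Runx3 and Cd4 lie left of 0 in Tregs of both genotypes, Cd4 and Runx2 in KO FoxP3+CD25- cells, and the KO over WT intervals all include 0.

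Among 15 other regulators of the CD4/CD8 choice, 6 were called in WT Tregs over non-Tregs (2 higher, 4 lower; median log2 fold change of the list 0.03, all genes -0.02) and 3 in KO (all lower; median -0.09, all genes -0.001). The share of all genes called was 10.9% in WT and 6.34% in KO. Tcf7 and Lef1, high-mobility-group factors of naive T cells that act upstream of ThPOK in the thymus, were lower, with log2 fold changes of -1.20 and -1.65 in WT and -1.22 and -0.89 in KO. Ikzf1 (Ikaros) was lower by -0.79 in WT and -0.72 in KO, and in WT Tox, a factor needed for the CD4 lineage, was higher by 0.81 (adjusted p between 5.70e-05 for Lef1 and 0.00420 for Lef1 in KO over these calls of edgeR). The other calls in WT were Gata3, which activates ThPOK and was higher by 0.88, and Satb1, lower by -0.99. Without both WT libraries of replicate 1, 1 was called higher (Tox) and the same 4 lower.

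In KO FoxP3+CD25- cells over KO non-Tregs, 1.67% of all genes were called. Among these 15 regulators, 1 was called there (median log2 fold change -0.007, all genes 0.006). It was Myb, a factor that promotes Gata3 expression in the thymus, at 18.8 and 12.8 CPM against 38.4 and 38.3 CPM (log2 fold change -1.30 ± 0.21, adjusted p = 0.0121). Against KO Tregs 6 were called, 4 higher and 2 lower, where 7.01% of all genes were called. Tcf7 (log2 fold change 0.93), Lef1 (1.25), Satb1 (0.95) and Ikzf1 (0.65) were higher. Tox (-0.73) and Myb (-1.03) were lower. Against WT non-Tregs, 1 was called (Myb, -1.29), beside 0.768% of all genes. Against WT Tregs the count was again 6, 4 higher and 2 lower, beside 11.2% of all genes. Without both WT libraries of replicate 1, none was called against WT non-Tregs and 5 against WT Tregs, 4 higher and 1 lower. For KO over WT cells, 0 of 15 were called in Tregs and 0 of 15 in non-Tregs, beside 0.00725% and 0.145% of all genes.

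**Figure D5:**
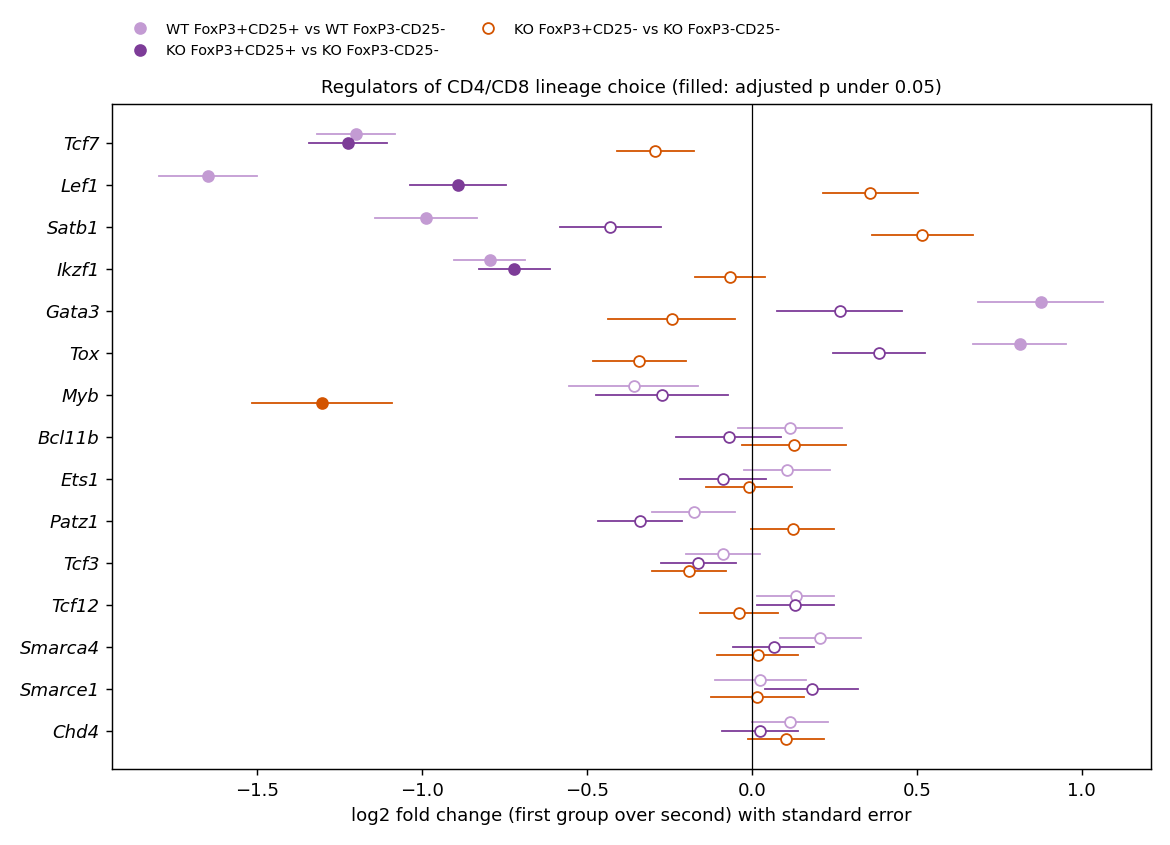
Log2 fold changes with standard errors of 15 regulators of the CD4/CD8 lineage choice in 3 comparisons between populations of the same genotype. Filled circles mark an adjusted p under 0.05 over all genes tested. Tcf7, Lef1 and Ikzf1 are lower in Tregs of both genotypes, and Myb is the filled point of KO FoxP3+CD25- cells, at -1.30.

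Of 12 Runx corepressors and partners, 10 were tested and 1 was called in any comparison. That call came in WT Tregs over non-Tregs, where 10.9% of all genes were called and 3.75% called lower. The count of 1 in 10 was thus near the share of all genes called. Tle4, a Groucho-family corepressor that Runx factors recruit, was at 74.2 and 62.0 CPM in WT Tregs against 118 and 104 CPM in WT non-Tregs (log2 fold change -0.71 ± 0.18, adjusted p = 0.0276). It was not called without both WT libraries of replicate 1. The median log2 fold change of the list lay between -0.06 and 0.11 over the 8 pairwise comparisons.

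Among 14 cytotoxic and CD8-lineage genes, a program in which Runx3 acts as an activator in CD8+ cells, 13 were tested. In Tregs over non-Tregs, 7 were called in WT (1 higher, 6 lower; median log2 fold change -1.29) and 9 in KO (2 higher, 7 lower; median -1.62). Over all genes, 10.9% were called in WT (median -0.02) and 6.34% in KO (median -0.001). Prf1 (perforin) had 9.85 and 8.98 CPM in WT Tregs against 53.3 and 52.7 CPM in WT non-Tregs (log2 fold change -2.49 ± 0.15, adjusted p = 6.17e-06), and in KO the log2 fold change was -1.41. Itgae (CD103) moved the other way, at 156 and 67.2 CPM in WT Tregs against 2.65 and 0.722 CPM in WT non-Tregs, and at 79.3 and 84.6 against 2.98 and 1.98 CPM in KO. Klrd1 (CD94) had at most 1 count in any Treg library, against 111 and 91 counts in WT and 18 and 57 counts in KO non-Tregs. Eomes was the further example in WT (-2.81), and Ifng in KO (-2.40). The 5 NK-cell markers moved with these genes, summing to 0.128 and 0.472 CPM in WT Tregs against 1.57 to 1.86 CPM in WT non-Tregs and to 0.786 and 1.22 CPM in KO Tregs against 2.48 to 4.22 CPM in KO non-Tregs, and their part in the result was not tested. Without both WT libraries of replicate 1, 3 were called in WT, Itgae higher and Prf1 and Klrd1 lower.

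In KO FoxP3+CD25- cells against KO non-Tregs, 1.67% of all genes were called and 1.35% called lower. There, 4 of these 13 were called, all lower (median log2 fold change of the list -2.66). They were Ifng, with 5 counts in each library against 164 and 200, Tbx21 (T-bet), with 7 and 13 counts against 87 and 202, Nkg7, a granule protein (log2 fold change -3.73 ± 0.59), and Eomes (-2.66 ± 0.56). Against WT non-Tregs 5 were called lower, and 1 (Ifng) without both WT libraries of replicate 1. Over all genes and libraries, 0.768% were called against WT non-Tregs and 7.01% against KO Tregs. Relative to KO Tregs 7 of the 13 were called, 3 higher and 4 lower. Prf1 (2.02) and Fasl (1.61) were among the higher, and Itgae (-4.56) and Gzmb (-4.31) among the lower. The NK-cell list moved with these genes, its 5 genes summing to 2.48 and 4.22 CPM in KO non-Tregs and to 0 and 0.547 CPM in KO FoxP3+CD25- cells, nearly all of it Klrb1c (at most 30 counts in any library), with Ncr1 at 0 counts in all 4 libraries, and its part in the result was not tested. In KO over WT cells, Prf1 was the single list gene called, in non-Tregs, where 0.145% of all genes were called. Prf1 was at 20.2 and 23.3 CPM in KO against 53.3 and 52.7 CPM in WT (log2 fold change -1.28 ± 0.14, adjusted p = 0.00765). It was also called without both WT libraries of replicate 1. Prf1 in KO FoxP3+CD25- cells was at 30.9 and 35.2 CPM.

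Some markers of dendritic cells and B cells were higher in Tregs. The 9 dendritic-cell markers summed to 35.9 to 66.5 CPM in the 4 Treg libraries, 8.86 and 8.89 CPM in KO FoxP3+CD25- cells and 4.02 to 11.4 CPM in non-Tregs, with Cd74 making up most of it in Tregs, and H2-Aa had 1 to 15 counts in any library. Of these 9, 3 were tested, and in Tregs over non-Tregs Cd74 was called in both genotypes (log2 fold change 4.39 in WT and 2.83 in KO), Zbtb46 in WT (2.25, adjusted p = 0.00668; 0.207 in KO) and H2-Ab1 in neither (adjusted p = 0.630 and 0.910). The 6 B-cell markers summed to 370 to 598 CPM in Tregs and 224 to 329 CPM elsewhere, with at most 5 counts of Ms4a1. Of these 6, 3 were tested, and Cd79b was called higher in Tregs of both genotypes, with 96 to 149 counts against 8 to 31 elsewhere (log2 fold change 3.86 in WT and 1.83 in KO, adjusted p = 6.16e-05 and 0.00585), and Ighm in WT (0.63, adjusted p = 0.0453; 0.0545 in KO). The 6 myeloid markers summed to 17.6 to 25.1 CPM over all libraries, with Csf1r at 80 to 161 counts. Among the 3 tested, Itgam was called lower in KO Tregs over non-Tregs (log2 fold change -1.75, adjusted p = 0.0207 in edgeR), where 6.34% of all genes were called. In WT it was at -0.92 (adjusted p = 0.127), and Csf1r and Cd68 were called in neither genotype. The part of these genes in the Runx3 and Cd4 differences was not tested, and in bulk libraries fewer cells of a type and less RNA per cell cannot be told apart.

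Across the 10 libraries, the levels of the members were also compared with those of all tested genes, as Pearson's r of log2 CPM, which is a description because the libraries share groups. The genes most like Runx3 were Madd (0.975), Prex1 (0.969) and Cd40lg (0.967), and those most like Cd4 were Vdr (0.968), Smtn (0.962) and Actg1 (0.962). For Runx2 they were Atp2b4 (0.983), Synpo (0.981) and Srxn1 (0.979), and for Runx1 Ankrd17 (0.963), Papola (0.962) and Hace1 (0.958). The lists were Gm26749, Abtb2 and Pafah1b1 for Cbfb (0.942 to 0.954), Tsc22d4, Adamts10 and Trdv2-2 for Zbtb7b (0.921 to 0.936), Bzrap1, Zfp455 and Phkb for Zbtb7a (0.933 to 0.936), Gm37660, Dnajb11 and Rbbp8 for Cd8a (0.912 to 0.945) and Zfp458, Tpgs1 and Ndufb9 for Cd8b1 (0.906 to 0.932). Ranking by Spearman's rho kept at most 1 of 3 genes in each list. Between members, r was 0.81 for Runx3 with Cbfb, 0.81 for Cbfb with Zbtb7b, 0.73 for Runx3 with Cd4 and -0.69 for Runx3 with Zbtb7a. It was 0.79 for Runx1 with Cd8a, which had only 1 to 50 counts.

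Runx1, Runx3, Cbfb and Cd8a were higher in the library numbered 1 than in the library numbered 2 in all 5 groups, by 1.20-fold to 1.40-fold for Runx1, 1.11-fold to 1.48-fold for Runx3 and 1.02-fold to 1.20-fold for Cbfb. Over all tested genes, 10% were higher in the library numbered 1 in every group and 8.46% were lower in every group. The labels do not say what the numbers share.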

How the data were processed

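The deposited files hold raw read counts per gene, 1 table per library, which the authors made by aligning 50-base reads to mm10 (GRCm38) with HISAT2 and counting with HTSeq (versions 2.1.0 and 0.11.1 in the submitters' processing notes). The strand setting is not given in the sources used here. The 5 HTSeq tally lines were left out, and 26.0% to 28.5% of reads lay on genes. Genes past filterByExpr (minimum count 10) were tested with edgeR 4.0.16 (quasi-likelihood, TMM, all 10 libraries, a mean per group, Benjamini-Hochberg adjustment, two-sided). A gene was called at an adjusted p under 0.05. The fits were also run on simulated counts with known changes. These were drawn independently for each library, so they cannot check the effect of a source shared by same-numbered libraries. Alternatives were DESeq2 1.42.0, RLE factors, no filter, compared libraries only, replicate blocks, each library left out and, added after seeing the data, both WT libraries of replicate 1 left out. Exon lengths and overlaps came from GENCODE M21. The members and lists were chosen with earlier results of these data known. The text names all 9 members, up to 4 called genes per list with the smallest p (more where a count is spelled out) and the 3 genes most correlated with each member. No 2 libraries of a group agreed within sampling noise.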

Additional observations from a re-analysis of the deposited data

Results flagged for a closer look

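For 4 listed genes, both KO libraries lay above both WT libraries in one of the sorted populations and below them in the other. Lef1 was at 304 and 236 CPM in KO against 190 and 226 CPM in WT Tregs, but at 546 and 454 against 649 and 654 CPM in non-Tregs (difference of the log2 KO effects 0.76, unadjusted p = 0.00362, adjusted p = 0.617 in edgeR). Tbx21 was at 3.36 and 4.59 CPM in KO against 9.60 and 5.67 CPM in WT Tregs, and at 14.4 and 26.6 against 14.3 and 8.87 CPM in non-Tregs (difference -1.74, adjusted p = 0.763). For Ifng the difference was -1.21 (adjusted p = 0.952). Klrd1 had a difference of 1.80 (adjusted p close to 1 in edgeR) and at most 1 count in any Treg library, which is under the floor of 3 counts. None of the 4 differences passed the correction over all genes. The share of all tested genes with such a pattern was not counted, so the count of 4 is given as a description only.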

How the results depend on the processing

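Over the alternatives tried, no log2 fold change of a member reversed a call, 22 passed the threshold that had not, 33 fell short that had and 1254 kept their side. Counts of genes called moved more. For KO FoxP3+CD25- over KO non-Tregs, 230 genes became 411 without the filter, 366 by DESeq2 and 30 to 323 with a library left out. For KO over WT non-Tregs, 20 became 91 without the filter, 111 by DESeq2, 66 with compared libraries only and 0 to 50 with a library left out. For KO over WT Tregs, 1 became 5, 5, 0 and 1 to 7 under the same settings. For KO FoxP3+CD25- over WT non-Tregs, 106 became 238 without the filter, 217 by DESeq2 and 25 to 174 with a library left out. For KO FoxP3+CD25- over WT Tregs, 1548 became 926 with compared libraries only and 790 to 1981 with a library left out. The difference of KO effects went from 0 to 7 without the filter, 25 by DESeq2 and 0 to 121 with a library left out. With a library left out, WT Tregs over non-Tregs gave 828 to 2185 genes (1504 in all libraries), the same in KO 396 to 1029 (874) and KO FoxP3+CD25- over KO Tregs 410 to 1189 (967). Without both WT libraries of replicate 1, an alternative chosen after seeing the data, these were 715 for WT Tregs over non-Tregs, 3 for KO over WT Tregs, 42 for KO FoxP3+CD25- over WT non-Tregs and 974 over WT Tregs.

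Members called in KO FoxP3+CD25- over KO Tregs rose from 1 to 2 without the filter, by DESeq2 and with compared libraries only, and were 0 to 2 with a library left out. Over WT non-Tregs, 0 became 2, 2, 1 and 0 to 1 under these settings. Over WT Tregs, 2 became 1 with compared libraries only and 1 to 2 with a library left out. Over KO non-Tregs, 2 became 0 to 2. For Tregs over non-Tregs, 2 became 0 to 2 with a library left out in each genotype, and in WT 1 with compared libraries only and 1 without both WT libraries of replicate 1. The cause of these shifts was not tested. Shares of all genes called under these settings are not set beside them, so the shifts are not read as a result about the members. Leaving out a library also leaves a group with 1 library, whose spread is then assumed to be that of the other groups.

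The samples share a replicate number, but the labels do not tie it to a mouse. Deviations of same-numbered libraries correlated at 0.303 within WT and 0.421 to 0.445 within KO, and at -0.0114 to 0.114 across genotypes. With a replicate block by number, the genes called were 403 for KO FoxP3+CD25- over KO non-Tregs, 4 and 108 for KO over WT Tregs and non-Tregs, 217 for KO FoxP3+CD25- over WT non-Tregs and 10 for the difference of KO effects, with 2 members called over KO Tregs and 1 over WT non-Tregs. With a replicate block by genotype and number, out of 13796 genes tested, they were 2634 for WT and 1649 for KO Tregs over non-Tregs. They were 786 and 2090 for KO FoxP3+CD25- over KO non-Tregs and KO Tregs, and 148 for the difference of KO effects. Under that block, 4 members were called in WT Tregs over non-Tregs (Runx3, Cd4, Runx2 and Zbtb7a) and 2 in KO FoxP3+CD25- over KO Tregs (Runx2 and Runx3). More genes were called in all under that block, so these member counts are likewise not read as a result about the members.

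Depth limits Cd8a, with 1 to 50 counts, which fell under the filter in some fits of compared libraries only and has no value there.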
